A study of Mus musculus with 6 samples.

Results

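The genes of the vacuolar ATPase, the proton pump that acidifies lysosomes and secretory granules, were described together with the cathepsins, the proteases that work in the acid compartments it makes, in mouse pancreatic islets treated with CMPF. Genes were taken by symbol from the array's annotation, as those starting with Atp6v or Atp6ap, those named Cts followed by 1 letter, and Lamp1, Lamp2 and Tfeb. This gave 43 genes of the 18193 on the array: 22 proton pump genes, 18 cathepsin genes and 3 others. Each gene was read by its brightest probe set, and the members without a probe set listed for 1 gene, among them the pump subunit gene Atp6v0c, were not analysed here.

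The study compared islets of male CD1 mice, an outbred stock, aged 8 weeks. All islets had rested overnight in RPMI medium. The vehicle group received 0.1% ethanol and the CMPF group 200 uM CMPF, each for 24 hours, and each group held 3 arrays. CMPF is a metabolite of furan fatty acids that circulates in blood. Whether the numbered arrays stem from different mice or islet isolations is not in the labels, so p-values measure only the spread among these 6 samples, and that spread may be technical. Islet endocrine markers bore out the tissue label: all 10 that were measured lay above the lower quartile of all genes, and their mean log2 signal was between 12.62 and 12.89 on every array. Exocrine tissue was present as well, with a mean of 8 acinar markers between 10.96 and 13.02.

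The vacuolar ATPase is a rotary pump. Its V1 sector, on the cytosolic side, splits ATP, and its V0 sector, in the membrane, carries protons into the lumen. In beta cells it acidifies the insulin granule, where low pH favours the conversion of proinsulin, and the lysosome, where surplus granules are broken down. Most cathepsins are made as inactive precursors and are activated in acid. TFEB is a transcription factor that is held in the cytosol by nutrient signals and that, in the nucleus, switches on lysosomal genes through an E-box with the core CACGTG.

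That core was searched for in the 250 bases before each start site in the RefSeq promoter table (GRCm38.p6), which held 37 promoters of 33 members. The motif is its own reverse complement, so both strands were read at once. It was found in 7 of the 37 member promoters, and in 6.02% of all 32851 promoters. The members were Atp6v0b, Atp6v1a, Ctsa, Ctsd, Ctsf, Ctsl and Lamp1. The longer form TCACGTG, searched on both strands and always overlapping the core, was found in 5 of the 37 and in 3.13% of all. A match is a description of the letters, and binding was not measured. Shown are a pump gene, a protease gene and a membrane gene with the longer form, each from a listed start within 4 bases of the gene's outer start. Each sequence is the 120 bases before the listed start, 5′ to 3′ on the gene's strand, with CACGTG in capitals.
Atp6v0b, chr4:117887330-117887449, minus strand: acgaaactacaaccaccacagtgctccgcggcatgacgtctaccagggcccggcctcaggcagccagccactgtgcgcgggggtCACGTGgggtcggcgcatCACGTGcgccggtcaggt
Ctsd, chr7:142387828-142387947, minus strand: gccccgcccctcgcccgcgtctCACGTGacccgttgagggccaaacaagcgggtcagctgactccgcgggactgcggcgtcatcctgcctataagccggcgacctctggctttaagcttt
Lamp1, chr8:13159041-13159160, plus strand: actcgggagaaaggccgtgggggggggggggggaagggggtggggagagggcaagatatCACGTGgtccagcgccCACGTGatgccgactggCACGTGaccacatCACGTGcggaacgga
Lamp1 held the core 4 times in these bases, with the first letters 61, 45, 28 and 15 bases before the start. Atp6v0b held it at 36 and 18 bases, and Ctsd once, at 98 bases.

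With CMPF, no gene of the pump, the cathepsins, the LAMPs or Tfeb passed the test. Limma, with Benjamini-Hochberg adjustment over all 18193 genes, called 0 of the 43 members, where it called 0% of all genes (smallest adjusted p = 0.99995). At an unadjusted limma p under 0.05 it reached 0 of the 43 members, against 1.13% of all genes. With the replicate number as a block it also called 0 members, and 0 of the 43 lay under an unadjusted 0.05, against 3.80% of all genes. Differences are given as CMPF minus vehicle, in log2 units. They ran from -0.16 for Ctsh to 0.18 for Atp6v0a4, and the median over the 43 members was 0.017, beside 0.0018 over all genes. The groups did not overlap for 2 members, Atp6v1d and Atp6v1e2, against 4.52% of all genes. Higher in all 3 pairs of like-numbered arrays were 4 members, Atp6v1e2, Atp6v1g2, Ctsa and Lamp1 (11.8% of all genes), and lower in all 3 were 3, Atp6ap2, Atp6v0a2 and Atp6v1d (11.1% of all genes). These shares are near the background or below it.

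**Figure D1:**
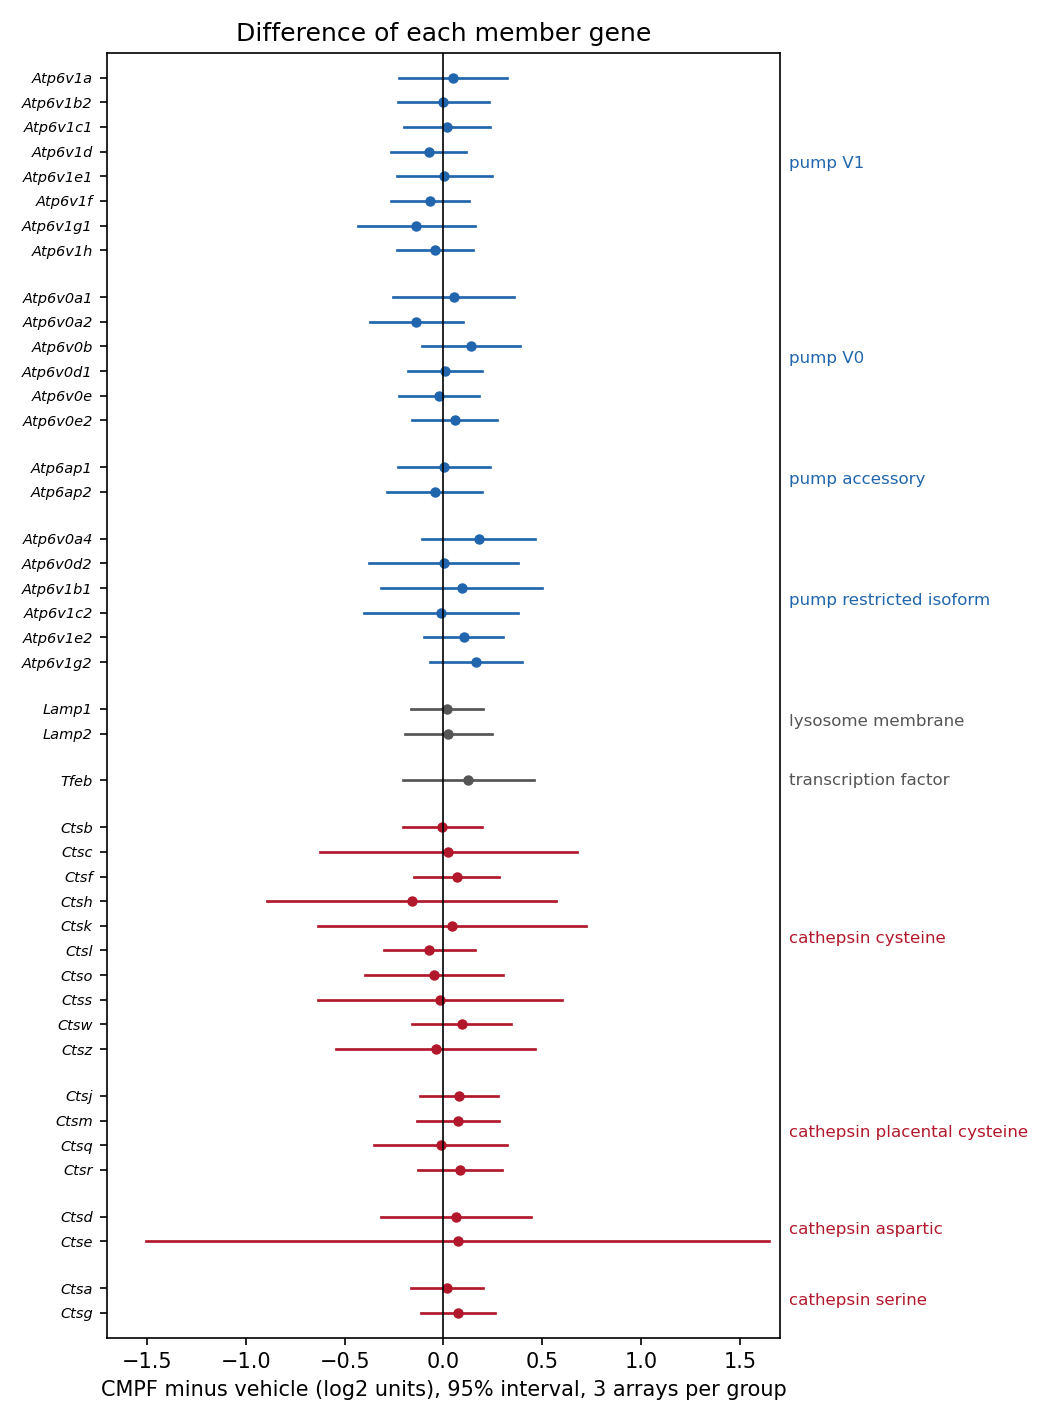
Differences of the 43 member genes, CMPF minus vehicle in log2 units, on the horizontal axis, as points with 95% limma intervals from 3 arrays per group, grouped by role. Every interval holds 0, and the widest is that of Ctse, from -1.50 to 1.65.

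The intervals show how much change these arrays could miss. The 95% limma interval lay within a 1.5-fold change in either direction for 22 of 22 pump genes and for 13 of 18 cathepsins. It lay within the same limits for 16328 of all 18193 genes. The exceptions were Ctsc, Ctse, Ctsh, Ctsk and Ctss. For Ctsb it ran from -0.21 to 0.19, for Atp6v1b2 from -0.23 to 0.23 and for Lamp1 from -0.17 to 0.20.

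The V1 sector was level between the groups. Its 8 broadly expressed subunits differed by -0.14 to 0.05, with a median of -0.022. Atp6v1a, the catalytic A subunit, read a log2 signal of 10.25, 10.20 and 10.54 on vehicle arrays 1 to 3 and 10.33, 10.32 and 10.48 on CMPF arrays 1 to 3. The CMPF values lay inside the vehicle range, and the difference was 0.05 (SE 0.116). Atp6v1b2, the B subunit that completes the ATP-splitting ring, read 10.47, 10.23 and 10.38 with vehicle and 10.42, 10.27 and 10.39 with CMPF. In both genes the replicate numbers had the same order in the 2 groups, and Atp6v1b2 differed by -0.0011 (SE 0.098).

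Atp6v1d, of the central stalk that turns inside the ring, was the 1 core subunit whose groups did not overlap. It read 10.32, 10.41 and 10.32 with vehicle and 10.27, 10.25 and 10.31 with CMPF. All CMPF values were lower, but by a margin of only hundredths, and the difference of -0.08 (SE 0.080) did not pass (limma unadjusted p = 0.379). Atp6v1g1, of the outer stalk, had the lowest difference of the pump genes, -0.14 (SE 0.126). It read 11.83, 12.12 and 12.02 with vehicle and 11.74, 11.76 and 12.06 with CMPF, so the groups overlapped. A second bright probe set of Atp6v1g1 differed by 0.03.

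The V0 sector was level as well. Its 6 broadly expressed genes had a median of 0.029 and differed by -0.14 to 0.14. Atp6v0b, a proteolipid of the rotor ring, read 9.92, 9.77 and 9.83 with vehicle and 10.04, 10.10 and 9.81 with CMPF. It was higher with CMPF in pairs 1 and 2 and lower by 0.03 in pair 3, a difference of 0.14 (SE 0.106). Its other 2 probe sets differed by -0.04 and 0.06, so the direction differed between probe sets. Atp6v0a2, an isoform of the large membrane subunit that forms the proton path, read 8.03, 7.84 and 7.83 with vehicle and 7.84, 7.80 and 7.65 with CMPF. It was lower in each pair by 0.19, 0.04 and 0.18, and the groups overlapped slightly, with a difference of -0.14 (SE 0.100). The other 2 probe sets of Atp6v0a2 differed by -0.05 and -0.02, and both were higher in pair 3, by 0.17 and 0.08. The isoform Atp6v0a1 differed by 0.05 (SE 0.130), and Atp6v0d1, the stalk foot that joins the sectors, by 0.0069 (SE 0.079).

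The accessory proteins help assemble the pump, and their genes did not pass the test. Atp6ap1 read 12.01, 11.84 and 11.95 with vehicle and 12.06, 11.81 and 11.93 with CMPF. Atp6ap2, also known as the prorenin receptor, read 12.92, 12.68 and 12.86 with vehicle and 12.88, 12.68 and 12.77 with CMPF. Array 2 was the lowest of both genes in each group. The differences were 0.0018 (SE 0.099) and -0.05 (SE 0.103), and all 3 probe sets of Atp6ap2 gave a negative difference.

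Of the 6 pump isoforms that other tissues use (kidney, osteoclasts, testis, neurons), every one had a mean signal under the median of all genes, and 4 were below the lower quartile. No detection calls were used, so a signal that low could not be told from background. Atp6v0a4, a kidney isoform, had the highest difference of any member, 0.18 (SE 0.122). It read 3.49, 3.49 and 3.65 with vehicle and 3.93, 3.71 and 3.52 with CMPF, and the groups overlapped. Atp6v1g2, a neuronal isoform, read 5.34, 5.46 and 5.35 with vehicle and 5.66, 5.59 and 5.40 with CMPF, a difference of 0.17 (SE 0.100). It had the smallest p of the members (limma unadjusted p = 0.141, and 0.105 with the block). Atp6v1e2, a testis isoform, read 5.51, 5.53 and 5.52 with vehicle and 5.60, 5.71 and 5.55 with CMPF. All CMPF values were higher, and the difference of 0.10 (SE 0.084) did not pass (limma unadjusted p = 0.265).

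Among the cathepsins, Ctsb, Ctsl, Ctsd and Ctsa had differences of -0.07 to 0.06, and none passed the test. Ctsb, a cysteine protease that beta cells make, read 12.34, 12.20 and 12.31 with vehicle and 12.24, 12.25 and 12.33 with CMPF, a difference of -0.0067 (SE 0.085). Ctsl, a cysteine protease of the same family, read 13.67, 13.61 and 13.65 with vehicle and 13.54, 13.45 and 13.73 with CMPF. It was lower in pairs 1 and 2 and higher in pair 3, and the difference was -0.07 (SE 0.098). Its signal was high but below the highest value on the arrays, 14.73. Whether signals that high limit what a small difference shows was not tested. Ctsd, the main aspartic protease of lysosomes, read 10.68, 10.93 and 10.53 with vehicle and 10.62, 11.08 and 10.62 with CMPF. Array 2 was the highest in both groups, and the difference was 0.06 (SE 0.162). Ctsa, a serine carboxypeptidase that also protects other lysosomal enzymes, read between 9.65 and 9.72 on all 6 arrays.

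Other cysteine cathepsins ranged over the 6 arrays from 0.19 (Ctsj) to 1.28 (Ctsh). Ctsh, an aminopeptidase, read 7.54, 8.34 and 7.77 with vehicle and 7.07, 7.97 and 8.14 with CMPF. It was lower by 0.47 and 0.38 in pairs 1 and 2 and higher by 0.36 in pair 3. The group difference was -0.16 (SE 0.312), the lowest of the members, and its second probe set gave 0.10. Ctsk, the collagen-degrading protease of osteoclasts and fibroblasts, read 5.84, 5.71 and 6.29 with vehicle and 5.71, 5.60 and 6.65 with CMPF, a difference of 0.04 (SE 0.289). Ctss, a protease of antigen-presenting cells, read 9.10, 9.41 and 9.66 with vehicle and 9.23, 8.94 and 9.94 with CMPF, a difference of -0.02 (SE 0.263). Array 3 was the highest of each group for both Ctsk and Ctss. The 4 cathepsins of the rodent placenta, Ctsj, Ctsm, Ctsq and Ctsr, lay below the lower quartile of all genes, as did Ctsg of neutrophils and mast cells, and their differences ran from -0.014 to 0.09.

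Lamp1 and Lamp2, the main glycoproteins of the lysosome membrane, did not pass the test. Lamp1 read 12.20, 12.15 and 12.15 with vehicle and 12.20, 12.19 and 12.15 with CMPF, and its range over all 6 arrays, 0.05, was the lowest of the 43. Its difference was 0.016 (SE 0.078). Lamp2 read 12.02, 12.09 and 12.18 with vehicle and 12.07, 12.05 and 12.23 with CMPF. The difference was 0.02 (SE 0.094), and its 3 other probe sets gave -0.16, -0.04 and -0.02. Tfeb read 7.05, 6.67 and 7.17 with vehicle and 7.18, 6.9997 and 7.09 with CMPF. Vehicle array 2 was the low value, and the difference was 0.13 (SE 0.141), or -0.02 without that array. TFEB is controlled largely by where it sits in the cell, which an array does not measure.

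Proton pump and protease genes were then compared. The median difference was 0.0032 for the 22 pump genes and 0.033 for the 18 cathepsins, so the pump lay lower by 0.029, and no test was made across genes. That order rests on the dim genes. At or above the median level the median was 0.00033 for 16 pump genes and -0.0067 for 11 cathepsins, so the pump lay higher. Positive differences were found for 13 of 22 pump genes and 11 of 18 cathepsins, beside 9231 of all 18193 genes. Within pairs the order changed. The pump median was 0.05, 0.03 and -0.02 in pairs 1, 2 and 3, and the cathepsin median -0.07, -0.03 and 0.08. The pump thus lay above the cathepsins by 0.12 and 0.06 in pairs 1 and 2, and below them by 0.10 in pair 3. At or above the median level the pump median was -0.00245, 0.0092 and -0.02 in pairs 1 to 3. The cathepsin median there was -0.10, -0.14 and 0.09, so the order in each pair was the same. Over the groups, the pump minus the cathepsins was 0.03 without CMPF array 2 and 0.017 without replicate 3, against -0.029 with all arrays. The pump median itself was 0.06 without CMPF array 2.

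**Figure D2:**
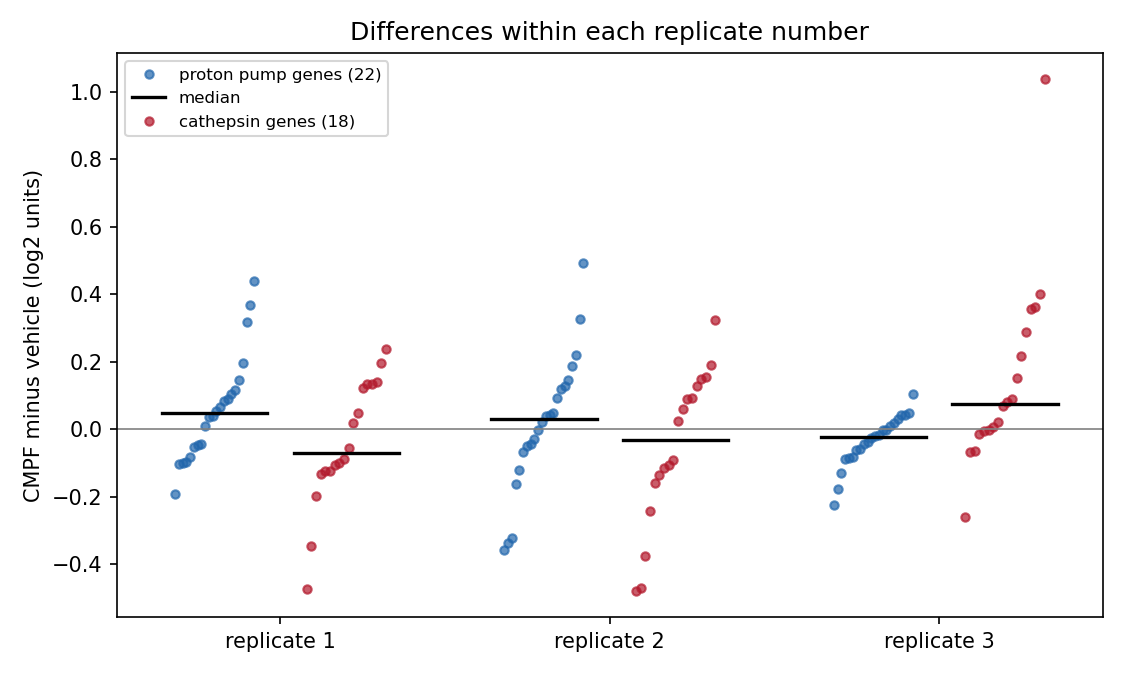
Each point is 1 gene, with CMPF minus vehicle in log2 units on the vertical axis for arrays of the same replicate number, and black bars are medians. The cathepsin median is -0.07, -0.03 and 0.08 in replicates 1, 2 and 3, and the highest point in replicate 3 is Ctse.

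Lower in pairs 1 and 2 and higher in pair 3 were 7 of 18 cathepsins (Ctsc, Ctse, Ctsh, Ctsk, Ctsl, Ctso and Ctsz) and 3 of 22 pump genes, beside 16.1% of all genes. Of the 11 cathepsins at or above the median level 6 had this order, where 23.1% of all such genes did. These counts use 1 probe set per gene. The second probe sets of Ctsh and Ctse lacked the order, at 0.07 and 0.01 in pair 2, while the others of Ctsz had it. Dimmer probe sets of Ctsl and Ctso also lacked it, and those of Ctsc went both ways. The opposite order, higher in pairs 1 and 2 and lower in pair 3, was found for 8 of 22 pump genes and 5 of 18 cathepsins, beside 16.7% of all genes. At or above the median level it was found for 6 of 16 pump genes and 1 of 11 cathepsins, beside 947 of all 9097 such genes. This description was chosen after the values were seen, and with 1 array of each group per pair it has no test. Of 10 stellate and fibroblast markers 7 had the order of those 7 cathepsins and Thy1, Fbln1 and Mgp did not, with pair medians of -0.26, -0.49 and 0.28. Of 15 macrophage markers 4 had it, with pair medians of 0.0055, -0.11 and 0.06. The part of these cells in the result was not tested. In bulk islet RNA, fewer cells of a type and less RNA per cell cannot be told apart.

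The spread over the 6 arrays was also compared between pump and protease genes, with no test, since genes are not replicates. The range, the highest minus the lowest log2 value, had a median of 0.25 over pump genes, 0.40 over cathepsins and 0.37 over all genes. No pump gene reached a range of 1 log2 unit, the widest being Atp6v1c2 at 0.62. Of the cathepsins 4 of 18 did, against 4.30% of all genes. They were Ctse (2.55), Ctsh (1.28), Ctsk (1.05) and Ctss (1.01). Among genes at or above the median level the median range was 0.25 over 16 pump genes, 0.55 over 11 cathepsins and 0.33 over all.

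**Figure D3:**
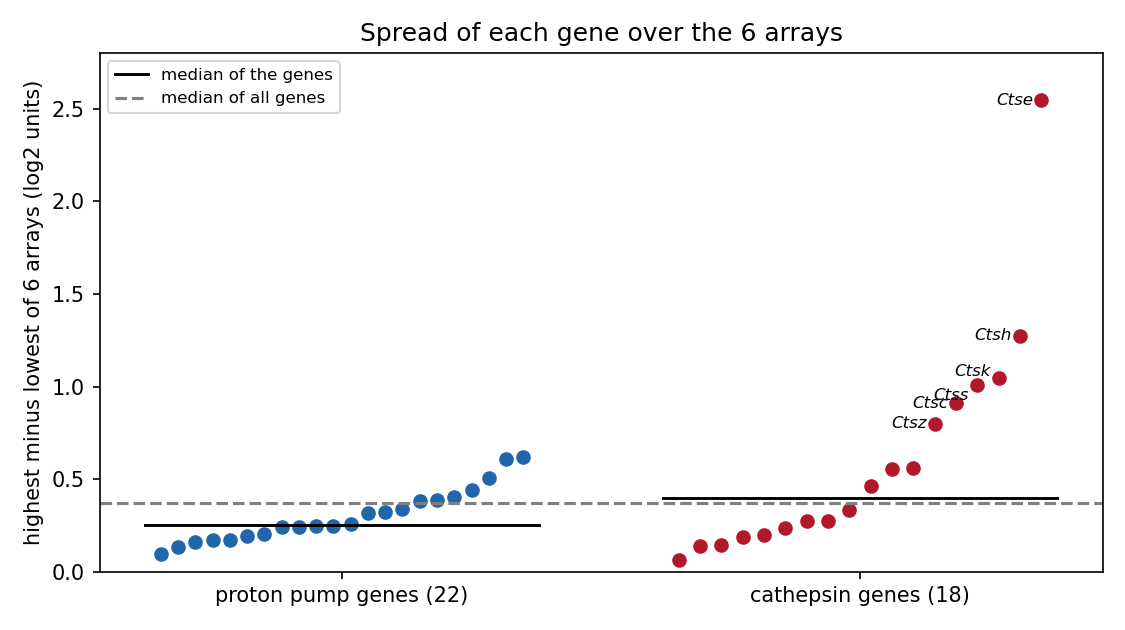
Range of each gene over the 6 arrays in log2 units on the vertical axis, 1 point per gene, with medians as black bars and the median of all genes, 0.37, as a dashed line. Pump genes stay at or below 0.62, while Ctse, Ctsh, Ctsk and Ctss exceed 1.

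Some of that spread lay between replicate numbers, though 0 members passed after adjustment. A limma F test for differences between replicate numbers, within the fit that also held treatment, was added after the values were seen. It gave an unadjusted p under 0.05 for 8 of 18 cathepsins (Ctsc, Ctsd, Ctse, Ctsh, Ctsk, Ctso, Ctss and Ctsz) and for 1 of 22 pump genes (Atp6v0a1), against 21.8% of all genes. At or above the median level the counts were 7 of 11 cathepsins and 1 of 16 pump genes, against 26.0% of all such genes. After adjustment over all genes 0 members were called, against 2.64% of all genes, or 481. The nearest were Ctsk and Ctse (limma adjusted p = 0.0641 and 0.0719). The counts turn on single arrays. The cathepsin count was 5 without CMPF array 1, without replicate 1 or without replicate 2. The pump count was 0 without CMPF array 1, CMPF array 3 or replicate 1, and 2 without vehicle array 2, vehicle array 3, replicate 2 or replicate 3. The number of all genes called was 0 without vehicle array 2, CMPF array 2 or replicate 2, 225 without CMPF array 1, 936 without vehicle array 3 and 821 without replicate 3. Whether pump and cathepsin genes differ in this respect was not tested, since genes are not replicates.

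The cathepsins that varied fell into different orders. Ctse, an aspartic protease of gastric and duct-type epithelium, read 7.89, 9.70 and 7.15 with vehicle and 7.54, 9.22 and 8.19 with CMPF. Array 2 was the highest in both groups, and within pair 3 the CMPF array was higher by 1.04. Its second probe set gave 5.70, 6.76 and 5.59 with vehicle and 5.61, 6.77 and 5.66 with CMPF, again highest on array 2. The mean log2 signal of 5 duct markers, of which Cftr lay below the lower quartile, came to 7.54, 8.31 and 7.26 with vehicle and 7.49, 8.41 and 7.69 with CMPF, and that of 8 acinar markers came to 11.91, 12.94 and 10.96 (vehicle) and 12.19, 13.02 and 11.92 (CMPF). Both marker means were highest on array 2 and, with vehicle, lowest on array 3, as was Ctse. With CMPF, Ctse and the duct mean were lowest on array 1 and the acinar mean on array 3. Of single markers, 4 of 5 duct genes and 8 of 8 acinar genes were highest on array 2 of each group, and the duct keratin gene Krt7 was lowest there. The part of these cells in the level of Ctse was not tested.

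Ctsk had another order, high on array 3 of each group. The mean of 10 stellate and fibroblast markers came to 8.35, 8.44 and 8.68 with vehicle and 8.05, 7.94 and 8.91 with CMPF, also highest on array 3. None of these 10 markers lay below the lower quartile of all genes. Of the 10, 5 were highest on array 3 of each group, Fbln1 was highest on array 1 of each, and the other 4 had their highest value on different arrays in the 2 groups. The mean of 6 endothelial markers came to 5.39, 5.72 and 5.84 with vehicle and 5.32, 6.02 and 6.13 with CMPF. It was lowest on array 1 and highest on array 3 of each group. Of single markers, 4 of 6 endothelial genes and 9 of 15 macrophage genes were also highest on array 3 of each group. The part of these cells in the level of Ctsk was not tested. Ctsc, which activates serine proteases of immune cells, read 8.74, 9.57 and 9.15 with vehicle and 8.66, 9.32 and 9.56 with CMPF. Ctsz, a carboxypeptidase, read 11.45, 11.89 and 11.83 with vehicle and 11.25, 11.75 and 12.05 with CMPF. Array 1 was the lowest of each group for Ctsc and Ctsz, and on the 3 probe sets of Ctsz alike. The mean of 15 macrophage markers came to 6.46, 6.59 and 6.56 with vehicle and 6.48, 6.50 and 6.65 with CMPF. It was highest on array 2 with vehicle and on array 3 with CMPF. These markers included 2, Itgam and Mrc1, below the lower quartile. Single macrophage markers ranged over the 6 arrays by 0.18 to 2.17 (Cd14), with a median of 0.44. The genes Ctse, Ctsc and Ctsz are described because of their spread and were chosen after their values were seen.

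**Figure D4:**
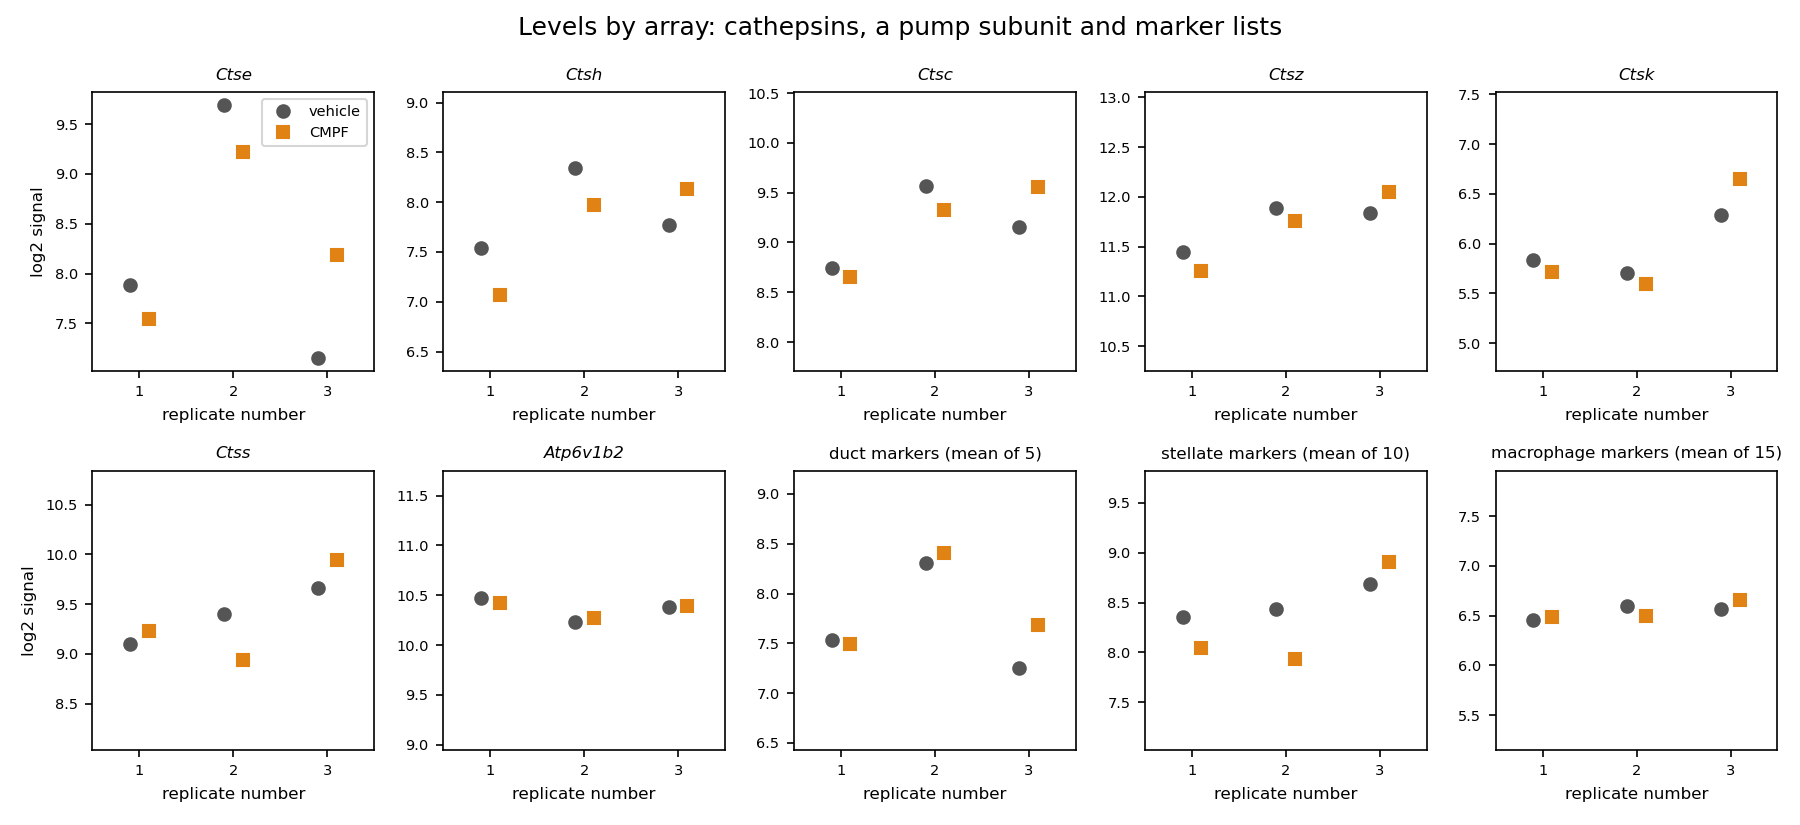
Log2 signal by replicate number for 6 cathepsins, a V1 subunit and the means of 3 marker lists, with circles for vehicle, squares for CMPF and an equal height of axis in every panel. Ctse and the duct mean are highest in replicate 2, Ctsk and the stellate mean in replicate 3, and Atp6v1b2 stays between 10.23 and 10.47. The macrophage mean is highest in replicate 2 with vehicle and in replicate 3 with CMPF. Of single markers, 5 of 10 stellate and 9 of 15 macrophage genes are highest in replicate 3 of both groups.

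Other genes of the lysosome and of pump assembly gave the same picture for CMPF. Of a list of 66 genes, made with earlier results of these data known, 62 were measured. Limma called 0 of the 62, with and without the block, as it called 0% of all genes. At an unadjusted limma p under 0.05 it reached 0 of 62, against 1.13% of all genes. With the block it reached 2 of 62, against 3.80% of all genes. The groups did not overlap for 4 of the 62, beside the 4.52% of all genes. The median difference was -0.0028, with 30 positive and 32 negative. By kind, 4 factors of lysosome control had a median of -0.08, 9 genes of pump assembly and partners -0.07 and 21 acid hydrolases 0.02. The median was -0.015 for 8 membrane proteins, 0.019 for 5 activators and inhibitors, 0.013 for 8 sorting genes and -0.017 for 7 mTORC1-related genes. The 4 genes with the smallest unadjusted p were Dmxl1, Lipa, Scpep1 and Dmxl2.

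Dmxl1 and Dmxl2 belong to the complex that rejoins V1 to V0. Dmxl1 read 6.24, 6.07 and 6.18 with vehicle and 5.52, 5.63 and 6.19 with CMPF. It was low on CMPF arrays 1 and 2 and level on array 3, a difference of -0.38 (SE 0.175; limma unadjusted p = 0.0626, and 0.0335 with the block). Dmxl2 differed by -0.15 (SE 0.095). Lipa, the acid lipase that frees cholesterol and fatty acids, read 7.08, 6.83 and 7.10 with vehicle and 7.18, 7.16 and 7.21 with CMPF, without overlap, a difference of 0.18 (SE 0.100; limma unadjusted p = 0.110). Scpep1, a serine carboxypeptidase, read 11.51, 11.66 and 11.58 with vehicle and 11.33, 10.96 and 11.65 with CMPF, a difference of -0.27 (SE 0.169). The value rests largely on CMPF array 2, without which it was -0.09, and it was -0.05 without replicate 2 and -0.12 with the mean of probe sets. Without replicate 1 Dmxl1 differed by -0.22, and without vehicle array 2 Lipa differed by 0.10. Flcn, folliculin of the nutrient-sensing machinery on the lysosome, was the other gene under 0.05 with the block, and was chosen after its values were seen. It was lower by 0.29, 0.24 and 0.19 in the 3 pairs, a difference of -0.24 (SE 0.172, and 0.076 with the block).

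Tcirg1, the pump's a3 subunit, which carries no Atp6v symbol, differed by -0.09 (SE 0.111). The TFEB relatives Tfe3 and Mitf differed by -0.06 (SE 0.093) and -0.11 (SE 0.094), and Mcoln1, the calcium channel of the lysosome, by 0.0071 (SE 0.093). None of these genes passed after adjustment.

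Several members are read by more than 1 probe set. The 43 genes had 85, and 13 genes had more than 1 at or above the median level of all genes. Of those 13, the probe sets gave 1 sign for 4 (Atp6ap2, Atp6v0a2, Atp6v1b2 and Atp6v1d) and both signs for the rest. For Atp6v1b2 the second bright probe set differed by -0.18 against -0.0011.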

How the data were processed

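The deposited log2 signals are RMA values. Per the submitters' processing notes, the authors used Expression Console 1.1 from Affymetrix, and no header or label used here records its settings. RMA puts all arrays on 1 distribution and compresses dim genes, and no detection calls come with it. Array medians were 5.08 to 5.15 (log2), and the number of arrays, 6, limits the precision. Of 45101 probe sets, 34945 were listed for 1 gene.

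CMPF was compared with vehicle over all 18193 genes by lmFit and eBayes (limma 3.58.1, run under R 4.3.3). The tests were two-sided, and p-values were adjusted after Benjamini-Hochberg with a threshold of 0.05. The F test for replicate numbers was also limma's. Both were run on simulated data with known changes and noise drawn independently for each array. Apart from those changes, like-numbered arrays shared no spread there, unlike the arrays here. Like-numbered arrays were taken as pairs from the data: deviations from the group means correlated between 0.488 and 0.638 for the same number. Over different numbers they lay between -0.555 and 0.0885. Intervals are from the fit without the block.

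The members and lists were chosen with earlier results of these data known. Genes given array by array are those fixed by role, those without overlap or under an unadjusted 0.05, and the 3 with the highest and the 3 with the lowest differences; Ctsa, Ctsc, Ctse and Ctsz were added after their values were seen. Of the other lysosome genes, the 4 with the smallest p and 4 fixed by name are described. Marker lists are means of log2 signals.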

Additional observations from a re-analysis of the deposited data

How the results depend on the processing

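The number of genes called for CMPF was 0 under each of 15 alternatives, over all genes and over the members. None of the 28 genes named by rule was called under any (smallest limma adjusted p = 0.978). The replicate block cannot change a difference here, since each number holds 1 array of each group. It lowered the median standard error from 0.116 to 0.0877, still with 0 calls. With arrays left out, 12 of the 28 changed sign, as did 6 under other alternatives. With median centring Atp6ap1 was at -0.0019, and with array weights at -0.027, Ctsh at 0.033 and Ctss at 0.10. A second quantile normalization put Atp6v1b2 at 0.012, Ctsb at 0.012 and Ctss at 0.0014, and the mean of probe sets put Ctsb at 0.031 and Lamp2 at -0.050. Leaving out 1 array or 1 pair gave -0.061 to 0.063 for Atp6ap1, -0.12 to 0.0058 for Atp6ap2, -0.017 to 0.15 for Atp6v1a, -0.067 to 0.054 for Atp6v1b2, -0.050 to 0.040 for Ctsb, -0.091 to 0.17 for Ctsd, -0.42 to 0.17 for Ctsh, -0.29 to 0.24 for Ctsk, -0.30 to 0.21 for Ctss, -0.034 to 0.066 for Lamp2, -0.023 to 0.23 for Tfeb and -0.040 to 0.062 for Mcoln1. The pump median ran from -0.032 to 0.059, the cathepsin median from -0.0033 to 0.047 and their difference from -0.074 to 0.035. Between replicate numbers, genes called ran from 0 to 936, cathepsins under an unadjusted 0.05 from 5 to 8 and pump genes from 0 to 2. The cause of these shifts was not tested. With 3 arrays a group and no detection calls, small changes and dim isoforms are beyond what these arrays show.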
